A study of Mus musculus with 8 samples.

Results

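The CXC chemokines described here are Cxcl1, Cxcl2, Cxcl3, Cxcl9, Cxcl10, Cxcl13, Cxcl14 and Cxcl16, which were listed by gene name. All 8 were found among the 30406 gene identifiers that every library listed. For each gene the unique molecular identifiers (UMIs, each standing for 1 captured mRNA molecule) were summed per library and per cell cluster. Sums are given as CPM, the gene's UMIs relative to all UMIs of the same library or cluster at a common scale, beside the percentage of cells with at least 1 UMI.

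The study asked how leukocytes of the brain and its coverings respond to stroke in adult male C57BL/6 mice after transient middle cerebral artery occlusion (MCAO), in which an artery supplying the brain is blocked and then reopened. Cells were sorted as CD45+ and negative for a CD45 antibody injected into the blood shortly before perfusion (CD45iv-CD45+), which leaves out leukocytes inside vessels, and the choroid plexus had been removed. Droplet libraries of 3′ mRNA ends were made from brain parenchyma, pia mater (the inner covering of the brain) and dura mater (the outer covering). Control brain, control pia and control dura had 1 library each, as did pia and dura 24 h after MCAO and brain 72 h after MCAO. There were 2 libraries for brain 24 h after MCAO. The control pia sample's title names brain parenchyma, but its description names the pia, and it was used as pia. The paper's Methods call the control mice of these libraries naive, while its figure captions call them sham. Experiments were repeated and pooled to a total n of 5 per compartment, but how many mice entered each library was not given, and neither was the occlusion time of each. Cells of the pia and dura were freed by a longer enzyme digestion than those of the brain, and those of the brain also passed a density gradient, so tissue and preparation cannot be told apart.

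Chemokines are small secreted proteins that direct leukocyte migration through receptors on the cell surface. Cxcl1, Cxcl2 and Cxcl3 carry a Glu-Leu-Arg (ELR) motif before their first cysteine and attract neutrophils through Cxcr2. Cxcl9 and Cxcl10 are induced by interferons and attract T cells and NK cells through Cxcr3, Cxcl13 attracts B cells through Cxcr5, and Cxcl16 is made as a membrane-bound protein that binds Cxcr6 and is released by the proteases Adam10 and Adam17. Cxcl14 is a distant and highly conserved member without an agreed receptor.

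The sequence that separates the neutrophil-attracting members from the rest lies in the coding region just before the CXC motif. It is shown as 30 coding bases per gene, 5′ to 3′ on the coding strand, from the GENCODE annotation of GRCm38, with the 3 codons before the first cysteine of the motif in capitals. The stretch lies in exon 2 of each gene except Cxcl14, where it spans exons 1 and 2. Positions are chr5:90891481-90891510 for Cxcl1, chr5:90904127-90904156 for Cxcl2 and chr5:90786353-90786382 for Cxcl3 on the plus strand. Cxcl9 lies at chr5:92326836-92326865 and Cxcl10 at chr5:92348175-92348204 on the minus strand, and Cxcl13 at chr5:95958649-95958678 on the plus strand. Cxcl14 spans chr13:56295909-56296116 and Cxcl16 lies at chr11:70459121-70459150, both on the minus strand.
Cxcl1: gccaatGAGCTGCGCtgtcagtgcctgcag
Cxcl2: gccagtGAACTGCGCtgtcaatgcctgaag
Cxcl3: gccagtGAGCTGCGCtgtcagtgcctgaac
Cxcl9: ataaggAATGCACGAtgctcctgcatcagc
Cxcl10: gcaaggACGGTCCGCtgcaactgcatccat
Cxcl13: tacacaAACTTAAAAtgtaggtgttctgga
Cxcl14: gtggacGGGTCCAAGtgtaagtgttcccgg
Cxcl16: agtgtcGCTGGAAGTtgttcttgtgatcgt

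The capitals of Cxcl1, Cxcl2 and Cxcl3 read as the ELR codons, and those of the other 5 genes do not. Over their aligned coding sequences Cxcl2 and Cxcl3 were identical at 89.67% of positions, Cxcl1 and Cxcl2 at 75.67%, Cxcl1 and Cxcl3 at 72.67%, and Cxcl9 and Cxcl10 at 48.55%. Cxcl2 and Cxcl3 shared a run of 110 identical transcript bases, but over the last 500 bases of each transcript, where 3′ libraries read, the longest shared run was 16 bases. Reads inside the shared run could not be assigned to 1 of the pair, so Cxcl3 counts carry that uncertainty.

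The upstream sequence is shown for the genes that held a match to the NF-kappaB consensus, which were the ELR genes and Cxcl10. Each had a higher level in all brain libraries after MCAO than in control brain, but this was not particular to them. Cxcl14, which held no such match, was also higher in all of these libraries. Cxcl9, which held none either, and Cxcl16, which had no window, were higher by value. For Cxcl9 and for Cxcl16, however, the difference lay within counting error in a brain library after MCAO, as given below. Whether the match bears on these levels was not tested. Of the 8 genes, 7 had a promoter window in the RefSeq table of GRCm38.p6. The 250 bases before each start were searched on both strands for the NF-kappaB consensus, which 3.90% of all 32851 such windows held, for the interferon-stimulated response element (2.98% of windows) and for the gamma-activated site (7.02%). Each sequence below runs 5′ to 3′ on the gene's strand with the match in capitals. They lie at chr5:90891159-90891198, chr5:90903787-90903826 and chr5:90786013-90786052 for Cxcl1, Cxcl2 and Cxcl3, and at chr5:92348968-92349007, chr5:92349024-92349063 and chr5:92349078-92349117 on the minus strand for Cxcl10.
Cxcl1 NF-kappaB: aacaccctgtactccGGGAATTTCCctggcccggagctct
Cxcl2 NF-kappaB: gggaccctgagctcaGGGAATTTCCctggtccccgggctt
Cxcl3 NF-kappaB: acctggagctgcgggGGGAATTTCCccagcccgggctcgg
Cxcl10 NF-kappaB, nearer the start: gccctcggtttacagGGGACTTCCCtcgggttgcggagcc
Cxcl10 NF-kappaB, farther: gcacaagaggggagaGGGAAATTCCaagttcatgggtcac
Cxcl10 interferon-stimulated response element, reverse strand: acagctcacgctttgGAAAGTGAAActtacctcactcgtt

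Cxcl1, Cxcl2 and Cxcl3 held the same 10 capital letters, beginning 71, 97 and 73 bases before the start. Each also held a match on the other strand, in an overlapping stretch beginning 70, 96 and 72 bases before the start. Cxcl10 held NF-kappaB matches beginning 103 and 159 bases before the start and the reverse-strand response element 213 bases before it. Cxcl14 held 1 interferon-stimulated response element, which began 172 bases before the start, and 1 gamma-activated site, which began 191 bases before it. The windows of Cxcl9 and Cxcl13 held none of the 3 motifs. A match gives only the letters of the window and not that a factor binds there.

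Of 36854 barcodes, 32457 carried a cluster name from the authors, 2810 to 6049 per library, with 1083 to 2505 UMIs per annotated cell at the median. The brain 24 h replicates stood apart in makeup. Granulocyte markers summed to 801 CPM in replicate 1 and 28036 CPM in replicate 2, and microglia markers to 5085 and 1101 CPM. Brain 24 h replicate 2 and brain 72 h were deposited with a list of 31053 genes and the other 6 libraries with 32285. Pairs of libraries with the longer list shared 10 to 32 annotated cell barcodes, the pair with the shorter list shared 8, and mixed pairs shared 0 to 2. The kit versions stated for the libraries set brain 72 h and dura 24 h (version 3) apart instead. The other 6 were version 2. Ratios of dura 24 h to control dura, of pia 24 h to dura 24 h and of brain 72 h to other brain libraries therefore cannot be told apart from the kit. Ratios of replicate 2 or brain 72 h to control brain or replicate 1 cannot be told apart from the gene list grouping. Markers of cells outside the sort stayed at or below 49.5 CPM in every library (endothelium, platelets, fibroblasts, neurons and astrocytes). A higher library value can come from more cells of a type or from more RNA per cell, and in library sums these cannot be told apart.

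The cluster names are the authors': microglia (Micro_1 to Micro_3), CNS-associated macrophages (CAM_1, CAM_2), macrophages (Macro_1, Macro_2), stroke-associated myeloid cells (SAMC), granulocytes (Granulo_1, Granulo_2), dendritic cells (mDC1, mDC2), T cells (Tc, gdTc), B cells (Bc), NK cells and type 2 innate lymphoid cells (ILC2). The names CAM_1 and CAM_2 matched their markers in pia and dura but not in every brain library. In pia and dura the summed border macrophage markers Pf4, Lyve1 and Mrc1 were 3100 to 5075 CPM in CAM_1 and the microglia markers 94.98 to 183 CPM. In the brain libraries the same cluster held 6.66 to 562 CPM of border macrophage markers and 420 to 10162 CPM of microglia markers, so its brain cells are called CAM_1 only by the authors' label. By library the border and microglia sums were 41.9 and 10162 CPM in control brain, 6.66 and 2583 CPM and 420 and 961 CPM in the 24 h replicates, and 562 and 420.02 CPM at 72 h, where border markers were the higher. CAM_2 had the same mismatch, with 15.3 against 11521 CPM in control brain and 6.24 against 2328 CPM in replicate 1. Micro_2 of control pia held 2633 CPM of border macrophage and 973 CPM of microglia markers. SAMC of pia 24 h held 2283 CPM of border macrophage and 169 CPM of microglia markers. In brain SAMC these sums were 9.74 and 472 CPM and 49.3 and 382 CPM in the 24 h replicates, and 392 and 257 CPM at 72 h. Macro_2 of control brain held 549 CPM of border macrophage and 791 CPM of microglia markers. After MCAO its sums were 56.8 and 265 CPM and 278 and 72.8 CPM in the 24 h replicates, and 68.7 and 120 CPM at 72 h. Granulo_2 held 113594 to 289585 CPM of S100a8, S100a9 and Hp, and Granulo_1 held 77.5 to 4093 CPM. Except in brain 24 h replicate 1 (2199 against 801 CPM), the Granulo_1 sum lay below that of its whole library. In control pia Granulo_1 also held 1661 CPM of border macrophage markers. Granulo_1 is therefore called a granulocyte cluster only by the authors' label. The clusters were drawn from the same counts, so levels of a gene across clusters are given as a description without a test.

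With 1 library in most groups, differences between single libraries have no replicate check. Their 95% intervals (exact Poisson or conditional binomial for counts and their ratios, Clopper-Pearson for shares) cover counting error only. Those of counts and ratios take UMIs of 1 cell as separate counts, so they can be too narrow for any of the genes. A count of 0 was taken to allow up to 3 UMIs. Counts of 3′ ends are not scaled by gene length, and levels are compared within a gene and not between genes.

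**Figure D1:**
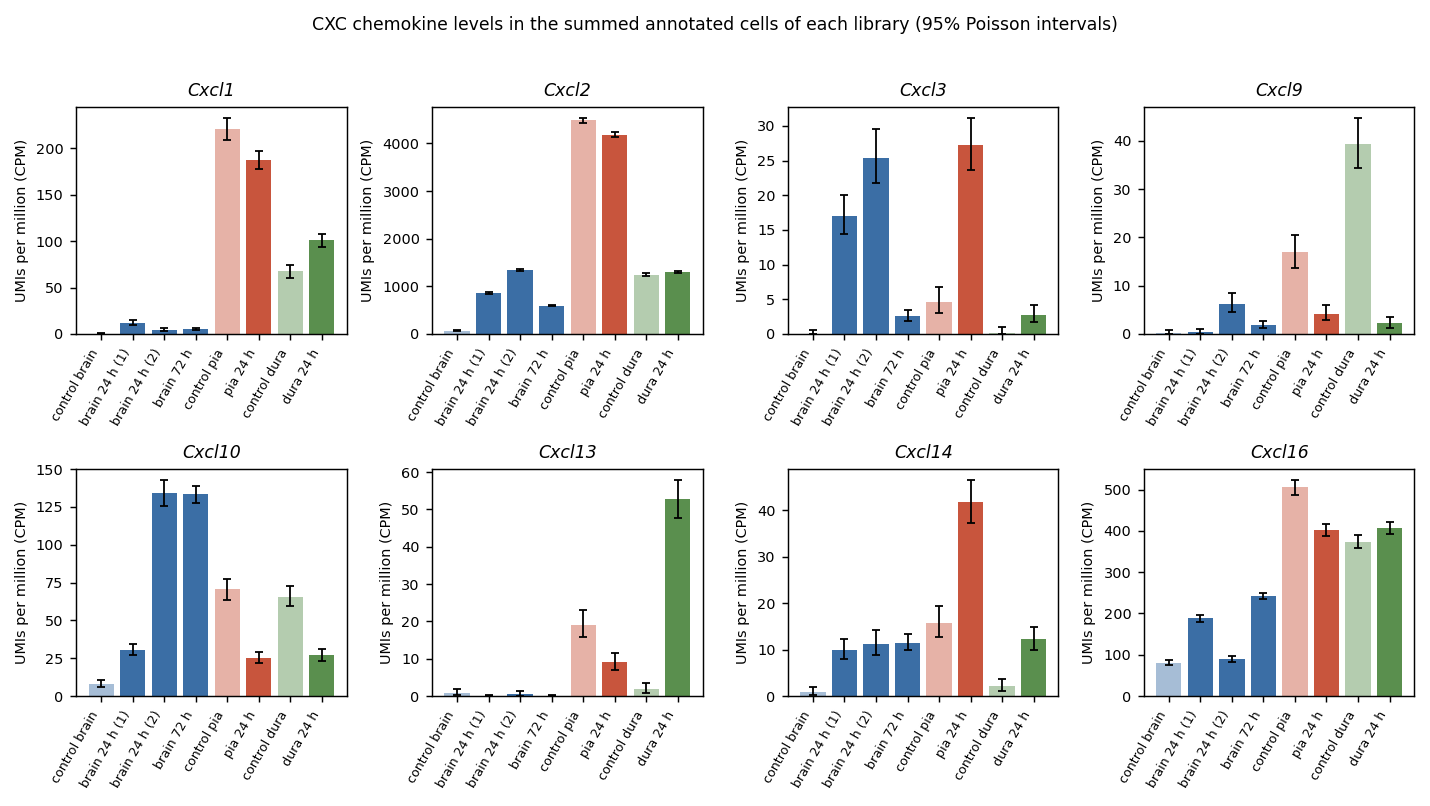
CPM of each of the 8 genes in each of the 8 libraries over annotated cells, with 95% Poisson intervals as error bars and control libraries drawn paler (brain blue, pia red, dura green). Cxcl2 reached 863, 1341 and 593 CPM in the brain libraries after MCAO against 68.6 CPM in control brain, while both pia libraries stood above every other library.

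Cxcl2, a main neutrophil attractant of macrophages and neutrophils themselves, was counted in all 8 libraries, with 102334 UMIs in 8965 of the 32457 cells (27.6%). It was 68.6 CPM in control brain, 863 and 1341 CPM in brain 24 h replicates 1 and 2 and 593 CPM in brain 72 h. It was 4488 CPM in control pia and 4184 CPM in pia 24 h, and 1242 CPM in control dura and 1294 CPM in dura 24 h. Control brain was therefore the lowest library and the pia libraries the highest, and all 3 brain libraries after MCAO lay above control brain and, but for replicate 2, below every pia and dura library. Against control brain the ratio was 12.6 (11.5 to 13.8) and 19.5 (17.8 to 21.5) at 24 h and 8.64 (7.88 to 9.49) at 72 h. The 24 h replicates differed from each other 1.55-fold. In the pia the ratio of MCAO to control was 0.932 (0.917 to 0.948) and in the dura 1.04 (1.01 to 1.07), and control pia exceeded control dura 3.61-fold (3.52 to 3.71). The share of cells with a Cxcl2 UMI followed the same order of tissues, from 2.35% (1.92 to 2.85) in control brain to 59.1% (57.2 to 60.9) in control pia. After each cell was thinned to 1000 UMIs, which kept 4030 of 4297 and 2332 of 2810 cells, these shares were 1.71% and 55.1%.

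In pia and dura CAM_1 had the highest Cxcl2 level, while Macro_2, a larger cluster there except in pia 24 h, held most of the UMIs in both controls. Macro_2 held 54.9% of the Cxcl2 UMIs in control pia against 37.8% in CAM_1, and 53.0% against 34.4% in control dura. At 24 h CAM_1 held 52.2% against 34.5% in the pia, and both held nearly the same share in the dura (38.8% and 38.3%). The CAM_1 level was 7202 CPM in control pia and 9146 CPM in pia 24 h, and 5276 CPM in control dura and 5075 CPM in dura 24 h, with 81.0 to 84.6% of CAM_1 cells carrying a UMI. The pia ratio within CAM_1 was 1.27 (1.24 to 1.30), opposite in direction to the ratio over all pia cells, and the dura ratio was 0.962 (0.915 to 1.01). Macro_2 was at 5954 and 6591 CPM in control and 24 h pia and at 2474 and 2532 CPM in control and 24 h dura.

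In the brain the sources of Cxcl2 differed between libraries, also between the 24 h replicates, so a change with time cannot be told apart from differences between libraries. In control brain, 35 Macro_2 cells, 0.815% of the library, held 69.2% of its Cxcl2 UMIs at 5345 CPM. Macro_2 then held 8614 and 4065 CPM in the 24 h replicates and 502 CPM at 72 h, which was 0.094 (0.0828 to 0.107) of the control level. The marker sums of Macro_2 given above also differed between these libraries, so the ratio may compare unlike cells under 1 label. After MCAO the highest level was in Granulo_2, whose neutrophil markers are given above. It held 9136 CPM in replicate 1 (47 cells, 91.5% with a UMI), 4585 CPM in replicate 2 (202 cells, 75.2%) and 4090 CPM at 72 h (373 cells, 64.1%). In replicate 1 its interval overlapped that of Macro_2. With only cells of at least 1000 UMIs its level was 5598 CPM in replicate 1 (13 cells), 4358 CPM in replicate 2 and 1161 CPM at 72 h, and the lead passed to Macro_2 in replicate 1 and to CAM_1 by label at 72 h. By UMIs the main sources were SAMC in replicate 1 (23.9%), Granulo_2 in replicate 2 (31.8%) and Granulo_1 at 72 h (26.8%). SAMC, the cluster the study named for stroke, held 1951, 837 and 460.5 CPM in the same libraries, and Granulo_1 held 4446, 2371 and 714 CPM. The levels of Granulo_2, Granulo_1 and SAMC at 72 h were thus lower than in either 24 h replicate. CAM_1 by label held 89.1 CPM in control brain and 1027, 2705 and 2859 CPM.

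Microglia clusters carried less Cxcl2 and had higher values in each library after MCAO than in control brain. Micro_3 went from 16.2 CPM in control brain to 526, 428 and 379 CPM, or from 1.8% of cells to 20.5%, 13.1% and 17.2%. Micro_2 went from 21.9 CPM to 56.7, 110.3 and 44.6 CPM, and Micro_1 from 7.55 CPM to 44.5, 55.1 and 19.5 CPM, the last from only 7 UMIs. Only for the Micro_1 value at 72 h did the interval of the ratio to control (0.937 to 6.22) include 1.

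Granulo_2 differed in its Cxcl2 between pia 24 h and dura 24 h, libraries that also differ in stated kit version. At 24 h after MCAO it held 2914 CPM in the pia (129 cells, 69.0% with a UMI) and 190 CPM in the dura (359 cells, 20.3%), a ratio of 15.3 (12.7 to 18.6). The intervals of the shares were 60.3 to 76.8% and 16.3 to 24.9%, and after thinning, which kept 29 and 244 cells, the shares were 34.5% and 7.38%. In those cells the levels were 2205 and 95.2 CPM. In control dura it held 200.02 CPM (146 cells, 21.2%), close to dura 24 h. The neutrophil markers of the cluster were 137906 CPM in the pia and 182413 CPM in the dura.

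ILC2, an innate lymphoid cell of barrier tissues, was a smaller Cxcl2 source that was higher after MCAO in both coverings. In the dura it went from 759 to 1921 CPM (ratio 2.53, 2.18 to 2.95), with 23.8% and 33.4% of cells, or 21.2% and 44.7% after thinning, which kept 99 of 286 and 188 of 673 cells. In the pia it went from 1006 to 3580 CPM (3.56, 2.52 to 5.16), while the share of its cells, 54.5% (36.4 to 71.9) of 33 and 49.4% (38.4 to 60.5) of 85, did not follow the level. B and T cells, which are not known as producers, were taken as a guide to background. Free RNA was not measured, and whether their UMIs came from it was not tested. A Cxcl2 UMI was found in 1.46 to 10.0% of them in the brain libraries, in 26.9% in control pia and 16.3% in pia 24 h, and in 8.71% and 7.42% in control and 24 h dura, at median depths of 857 to 1700 UMIs. The ILC2 shares and the CAM_1 shares of pia and dura lay above the B and T cell share of their own library, and so did those of Granulo_2 in brain and pia. Granulo_2 of dura 24 h lay above it unthinned but not after thinning (7.38% against 7.74% of B and T cells), so its Cxcl2 there is not separated from background. Micro_3 of control brain (1.8%) lay below the 2.63% of B and T cells. The shares of Micro_1 and Micro_2 in the brain libraries (1.13 to 7.62%) stayed under the highest B and T cell share there (10.0%) and are not read as expression. In brain 72 h, however, they lay above the 1.46% of that library's own B and T cells. Control brain and brain 24 h replicate 1 held only 38 and 40 B and T cells, so the background share is uncertain there.

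**Figure D2:**
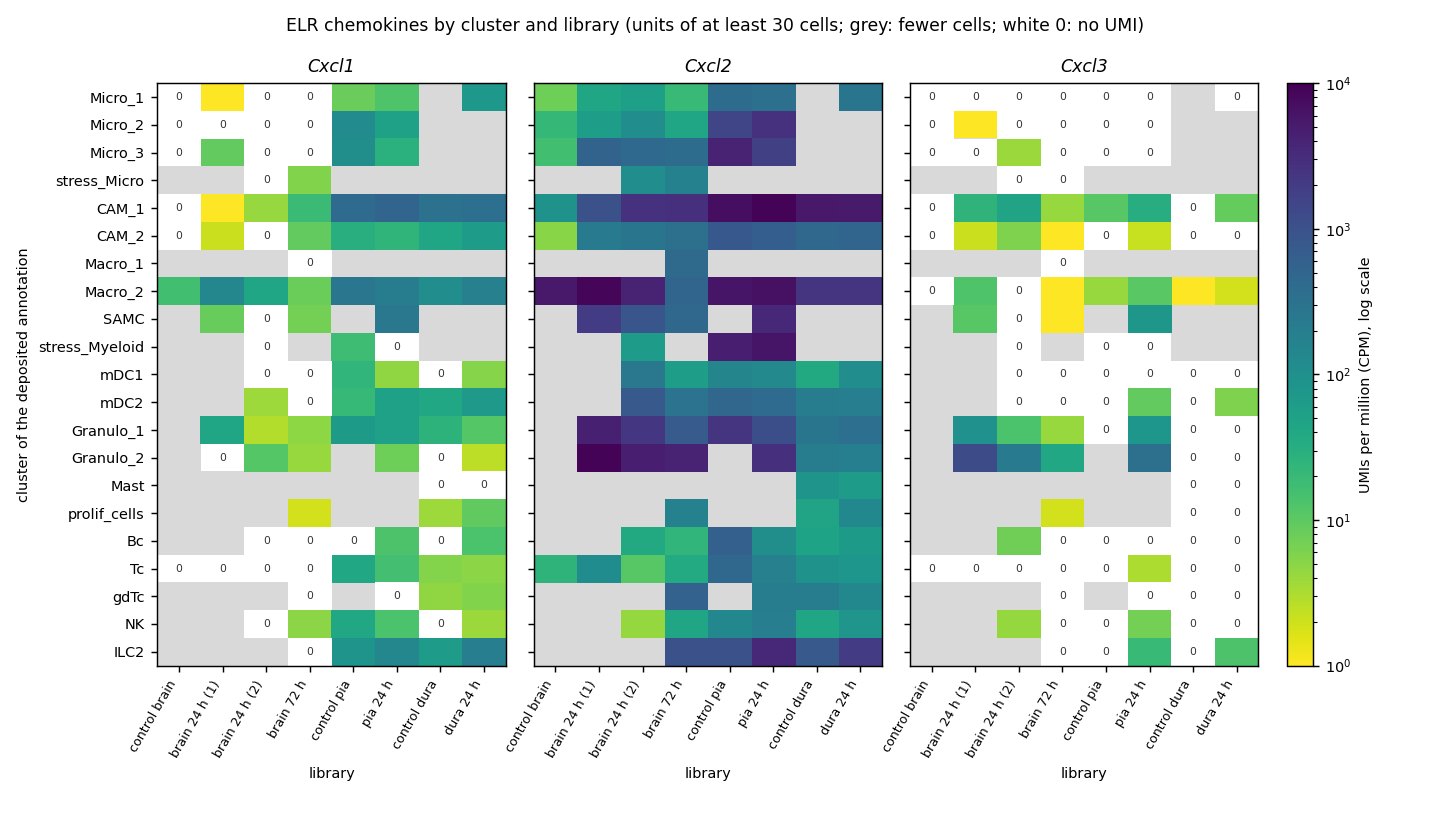
Level of Cxcl1, Cxcl2 and Cxcl3 (CPM, logarithmic colour scale, values under 1 drawn as 1) in each cluster (rows) and library (columns), with grey where a cluster had under 30 cells and white where no UMI was counted. Cxcl1 filled CAM_1 and Macro_2 of pia and dura, and Cxcl2 nearly every myeloid cluster. Cxcl3 filled Granulo_2 and Granulo_1 of brain and pia after MCAO but not Granulo_2 of either dura library. Granulo_1 is a granulocyte cluster only by the authors' label. CAM_1 of brain and pia after MCAO also held Cxcl3, at a lower level than Granulo_2.

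Cxcl1, which acts on the same receptor, had 4138 UMIs in 1127 cells (3.47%) and was largely a gene of the coverings. It was 0.144 CPM in control brain (1 UMI), 12.1 and 4.75 CPM in brain 24 h replicates 1 and 2, and 5.20 CPM in brain 72 h. It was 220.6 CPM in control pia, 187 CPM in pia 24 h, 67.3 CPM in control dura and 101 CPM in dura 24 h. Every pia and dura library lay above every brain library. The brain ratios to control rest on that 1 UMI and were 84.6 (14.9 to 3372), 33.1 (5.53 to 1348) and 36.2 (6.32 to 1447). The pia ratio was 0.847 (0.785 to 0.914), the dura ratio 1.5003 (1.33 to 1.70), and control pia exceeded control dura 3.28-fold (2.92 to 3.68).

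CAM_1 had the highest Cxcl1 level in all 4 libraries of the coverings, although Macro_2 held more of the UMIs in control pia (50.9%), control dura (43.9%) and dura 24 h (35.8%). The level in CAM_1 was 403 and 497 CPM in control and 24 h pia and 326 and 350.5 CPM in control and 24 h dura, with a UMI in 21.1 to 24.8% of its cells. CAM_1 of the brain libraries held 0 to 18.8 CPM. The ratio after MCAO within CAM_1 was 1.23 (1.11 to 1.37) in the pia and 1.08 (0.8801 to 1.32) in the dura. Macro_2 held 271 CPM in control pia and 209 CPM in pia 24 h (0.769, 0.674 to 0.877), and 111 and 184 CPM in control and 24 h dura (1.66, 1.37 to 2.02). The direction in Macro_2 thus differed between pia and dura, a difference that has no replicates behind it. ILC2 of the dura went from 61.7 to 195 CPM (17 and 119 UMIs; ratio 3.16, 1.89 to 5.60). In brain 24 h replicate 1, 46.2% of the Cxcl1 UMIs came from 2 cells of mDC2, so that library's level is set by single cells. B and T cells held a Cxcl1 UMI in 0 to 1.78% of cells, below the CAM_1 shares of pia and dura.

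Cells with Cxcl1 mostly also held Cxcl2. In CAM_1 a Cxcl2 UMI was found in 95.9% of Cxcl1-positive and 77.0% of Cxcl1-negative cells in control pia, and in 97.4% and 80.9% in pia 24 h. In Macro_2 of control dura the shares were 93.2% and 49.0%. In ILC2 of dura 24 h they were 70.0% and 31.7%, with median depths of 1050 and 880 UMIs. Deeper cells are more often positive for both, which is a limit of these shares.

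Cxcl3, the closest relative of Cxcl2, was rare, with 620 UMIs in 295 cells (0.909%). No UMI was counted in control brain. It was 17.1 and 25.4 CPM in brain 24 h replicates 1 and 2, 2.54 CPM in brain 72 h, 4.65 CPM in control pia, 27.3 CPM in pia 24 h, 0.17 CPM in control dura (1 UMI) and 2.72 CPM in dura 24 h. The 3 libraries of brain and pia at 24 h stood above the other 5. Against the 3 UMIs that a count of 0 allows, the brain levels were at least 39.6-fold and 59.0-fold higher at 24 h and at least 5.89-fold higher at 72 h. Brain 72 h was 0.149 (0.103 to 0.211) and 0.0998 (0.0692 to 0.141) of the 24 h replicates. The pia ratio was 5.86 (3.92 to 9.11), and the dura ratio, against 1 UMI, was 15.6 (2.52 to 643).

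Granulo_2 was the leading Cxcl3 source in the brain after MCAO. It held 1191 CPM in replicate 1 (17 of 47 cells), 223.5 CPM in replicate 2 (39 of 202 cells, 81.9% of the library's UMIs) and 40.8 CPM at 72 h (17 of 373 cells). In cells of at least 1000 UMIs these levels were 674, 219.6 and 12.5 CPM. In pia 24 h it held 337 CPM (25 of 129 cells), or 126 CPM in the 29 cells of at least 1000 UMIs. There Granulo_1 (29.2%) and CAM_1 (28.2%) held more of the UMIs than Granulo_2 (21.1%). CAM_1 also held 24.8% in replicate 1 and 55.6% of the 27 UMIs in control pia. Of the 22 UMIs in dura 24 h, ILC2 held 36.4% and CAM_1 31.8%. In the dura none was counted, in 0 of 146 Granulo_2 cells in control and 0 of 359 at 24 h, and Granulo_2 of pia 24 h was at least 88.5-fold higher than that of dura 24 h. Granulo_1 held 95.6, 13.4 and 4.17 CPM in the brain libraries after MCAO and 80.3 CPM in pia 24 h. In replicate 2, 97.4% of the Cxcl3-positive Granulo_2 cells also held Cxcl2 against 69.9% of the rest, although the positive cells were shallower, with 1496 against 2783 UMIs at the median.

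The receptor shared by the 3 ELR genes was highest in the same cluster. Cxcr2 in Granulo_2 was 484, 458 and 304 CPM in brain 24 h replicates 1 and 2 and brain 72 h, 444 CPM in pia 24 h, 92.8 CPM in control dura and 52.0 CPM in dura 24 h. Granulo_2 of the dura was therefore the lowest of these in Cxcr2, in Cxcl2 and in Cxcl3.

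Cxcl10, an interferon-induced ligand of Cxcr3, had 4573 UMIs in 1385 cells (4.27%). In the brain it was 8.04 CPM in control, 30.5 and 134 CPM in 24 h replicates 1 and 2, and 133 CPM at 72 h. In the coverings it was 70.4 CPM in control pia, 25.3 CPM in pia 24 h, 65.7 CPM in control dura and 27.0 CPM in dura 24 h. Control brain was the lowest library, and both coverings were lower after MCAO, the reverse of the brain. The brain ratios were 3.79 (2.83 to 5.15), 16.6 (12.7 to 22.2) and 16.6 (12.7 to 22.0), and the 24 h replicates differed 4.39-fold. Replicate 2 and brain 72 h, the higher values, were the libraries with the shorter gene list. There stroke and that grouping cannot be told apart. The ratio was 0.359 (0.301 to 0.427) in the pia and 0.410 (0.346 to 0.486) in the dura.

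Micro_3 held the most Cxcl10 UMIs of any cluster in brain 24 h replicate 2 and brain 72 h. In replicate 1 CAM_1 by label (85 UMIs), SAMC (52 UMIs) and Macro_1 (15.4% of the library's UMIs) were ahead of it. Micro_3 held 15.1 CPM in control brain, 40.4 and 628 CPM in 24 h replicates 1 and 2 and 1600 CPM at 72 h, with a UMI in 2.6%, 6.0%, 22.6% and 52.2% of its cells. The last share, 106 of 203 cells, had an interval of 45.1 to 59.3%. After thinning to 1000 UMIs, which kept 490 of 506, 463 of 469, 160 of 283 and 185 of 203 cells, the shares were 2.2%, 2.4%, 19.4% and 42.7%, so control, replicate 2 and 72 h kept their order at equal depth, while replicate 1 lay close to control. Micro_3 ratios to control were 2.68 (1.40 to 5.46), 41.7 (24.0 to 79.2) and 106 (61.7 to 200.1). Micro_1 and Micro_2 had the same pattern. Micro_1 was 4.6, 5.7, 68.9 and 203.5 CPM in that order and Micro_2 was 6.9, 7.6, 96.5 and 266 CPM, with replicate 1 again within counting error of control (ratios 1.25, 0.528 to 2.91, and 1.11, 0.498 to 2.47). B and T cells held Cxcl10 in 0 to 4.88% of cells, the highest share, with 112 CPM, in brain 72 h, where the Micro_1 and Micro_2 shares were 11.7% and 12.3%.

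Smaller clusters also held Cxcl10. Proliferating cells of brain 72 h held 854 CPM in 106 cells and 20.8% of that library's UMIs. Macro_1 held 1100 CPM in 73 cells of brain 72 h. In brain 24 h replicate 2 Macro_1 was the second source, with 21.3% of the 901 UMIs in 0.26% of the cells. A single Macro_1 cell held 92 of those UMIs. In the dura, gdTc went from 148 to 8.5 CPM (32 and 3 UMIs; ratio 0.058, 0.0113 to 0.184), NK cells from 123 to 59.4 CPM (0.481, 0.232 to 0.971) and Macro_2 from 80.7 to 39.8 CPM (0.493, 0.358 to 0.673). In the pia, mDC2 went from 194 to 32.9 CPM (0.170, 0.0952 to 0.287) and Macro_2 from 62.8 to 28.5 CPM (0.454, 0.321 to 0.632). The lower library value after MCAO was thus present within several named clusters of each covering, but mDC2 of the dura was 47.0 CPM in control and 64.3 CPM at 24 h (1.37, 0.838 to 2.26).

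Cxcl9, the other interferon-induced Cxcr3 ligand, was rarer, with 449 UMIs in 156 cells (0.481%). It was 0.14 CPM in control brain (1 UMI), 0.34 and 6.24 CPM in the 24 h replicates and 1.86 CPM at 72 h. It was 16.9 CPM in control pia, 4.17 CPM in pia 24 h, 39.3 CPM in control dura and 2.23 CPM in dura 24 h. As with Cxcl10, the control coverings were above the coverings after MCAO. The pia ratio was 0.247 (0.161 to 0.372) and the dura ratio 0.057 (0.0330 to 0.0916). The brain ratios rest on the 1 UMI of control brain and were 2.39 (0.192 to 126), 43.5 (7.39 to 1757) and 12.9 (2.15 to 527).

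The dura difference in Cxcl9 was present in several clusters. Macro_2 went from 57.8 CPM (88 UMIs) to 1.26 CPM (2 UMIs), a ratio of 0.022 (0.0026 to 0.0813). The dendritic cells of mDC2 went from 94.1 to 14.9 CPM (0.159, 0.0725 to 0.313), and mDC1 from 58.0 CPM (37 UMIs) to no UMI, at least 10.9-fold lower. In the pia mDC2 went from 85.1 to 23.8 CPM (0.279, 0.135 to 0.547), but Macro_2 was 7.91 and 8.92 CPM (1.13, 0.534 to 2.34). In control pia, 44 of 98 UMIs lay in 18 Macro_1 cells, and 1 of these cells held 27 UMIs, so the pia ratio rests in part on a single control cell. In brain 72 h, 76.7% of the Cxcl9 UMIs lay in 5 of 73 Macro_1 cells, and in brain 24 h replicate 2 a single Macro_1 cell held 23 of 42 UMIs, so brain Cxcl9 came from few cells.

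Values of the receptor and of the inducing cytokine are given beside the pair. Cxcr3 was 108 to 298 CPM in Tc and 198 and 212 CPM in gdTc of control and 24 h dura, with library sums of 4.24 to 30.7 CPM. Ifng, the interferon that induces both ligands, was 1.72 CPM in control brain, 0.80 and 23.3 CPM in the 24 h replicates and 15.4 CPM at 72 h, and in NK cells it was 336 CPM in replicate 2 and 535 CPM at 72 h. Replicate 1 was the lowest of the brain libraries after MCAO in Cxcl9, Cxcl10 and Ifng alike. The other brain libraries after MCAO were those with the shorter gene list, so this order cannot be told apart from that grouping. In the pia Ifng was 4.48 CPM in control and 4.04 CPM at 24 h, and in the dura 9.61 and 5.20 CPM. Whether these genes act on Cxcl9 or Cxcl10 here was not tested.

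**Figure D3:**
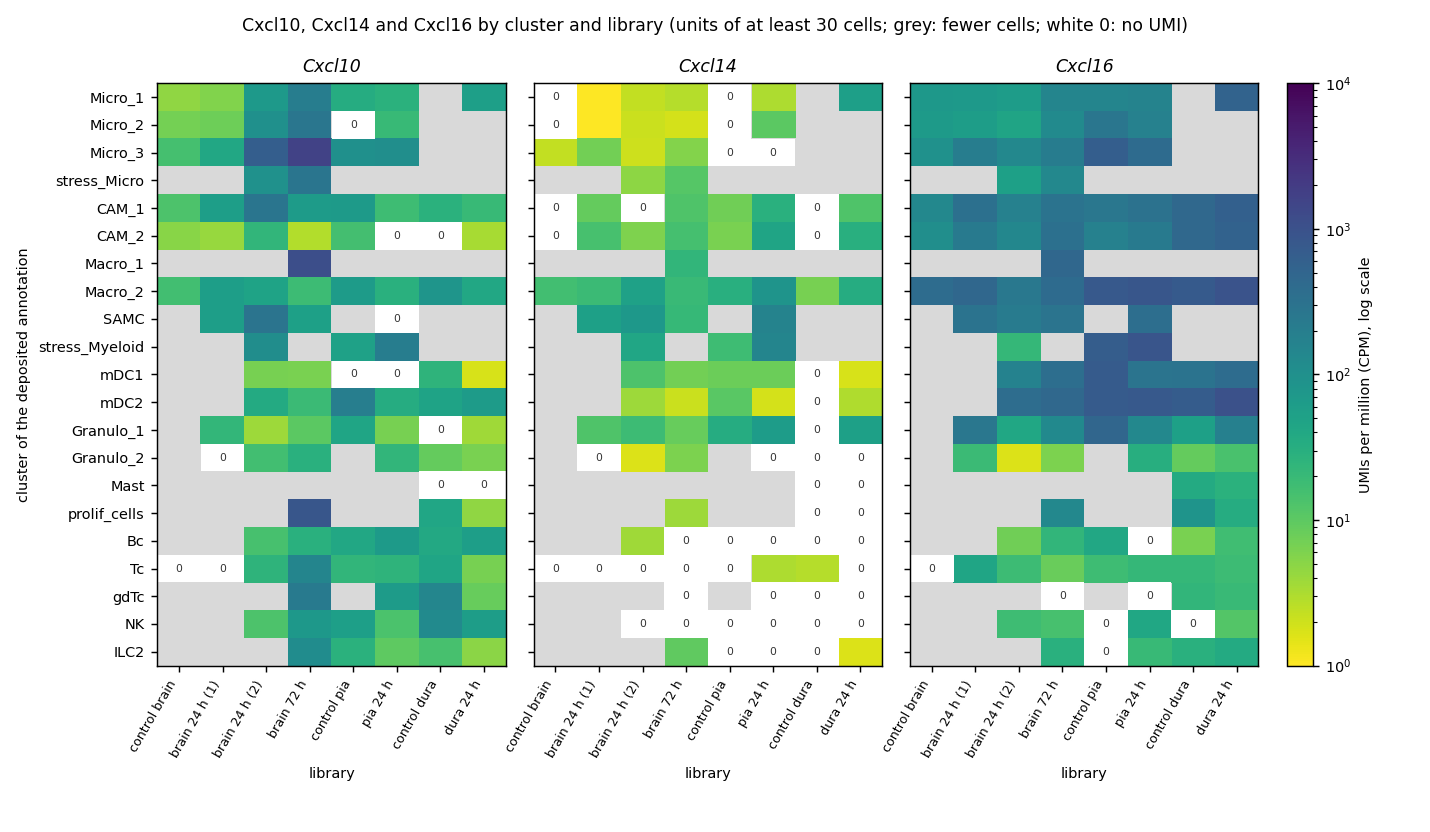
Level of Cxcl10, Cxcl14 and Cxcl16 (CPM, logarithmic colour scale, values under 1 drawn as 1) in each cluster (rows) and library (columns), with grey where a cluster had under 30 cells and white where no UMI was counted. Micro_3 Cxcl10 runs from 15.1 CPM in control brain to 1600 CPM at 72 h, libraries that also differ in gene list and stated kit version. Cxcl14 is highest in SAMC of pia 24 h (164 CPM) among the clusters named in the text, and SAMC there carried mainly border macrophage markers. Cxcl16 is present across myeloid clusters and low in Granulo_2, Tc, Bc and NK cells.

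Cxcl13, the B cell attractant, differed from the others in that a handful of cells held most of it. Over annotated cells it had 628 UMIs in 69 cells (0.213%), of which the top 10 cells held 79.9%. It was 0.86 CPM in control brain, 0, 0.45 and 0.06 CPM in the brain libraries after MCAO, 19.1 CPM in control pia, 9.13 CPM in pia 24 h, 1.92 CPM in control dura and 52.7 CPM in dura 24 h. Dura 24 h was the highest library. Its ratio to control dura was 27.4 (15.2 to 55.3), an interval that treats UMIs of 1 cell as separate counts. In dura 24 h, CAM_1 held 178 UMIs in 6 cells, Macro_2 192 UMIs in 13 cells and Granulo_1 43 UMIs in 1 cell. In control pia 105 of the 111 UMIs lay in 1 mDC1 cell.

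Over all barcodes, including those without a cluster name, 86 held a Cxcl13 UMI, and 13 barcodes with at least 10 UMIs held 909 of 1075 UMIs (84.6%). Of the border macrophage markers, Pf4 was present in 10 of these 13 and above 2 UMIs in 6, Lyve1 was present in 3 and Mrc1 in 4. Of the 13, 1 held the fibroblast collagens Col1a1 and Col1a2, 8 held no more than 1 Cxcl2 UMI, and 0 held Cd79a or Ms4a1, markers of B cells. Their Cxcl13 counts ran from 18 to 198 UMIs. The largest was a control brain barcode without a cluster name, of 9825 UMIs in all. Cxcr5, the receptor, was 26.6 to 120 CPM in Bc.

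**Figure D4:**
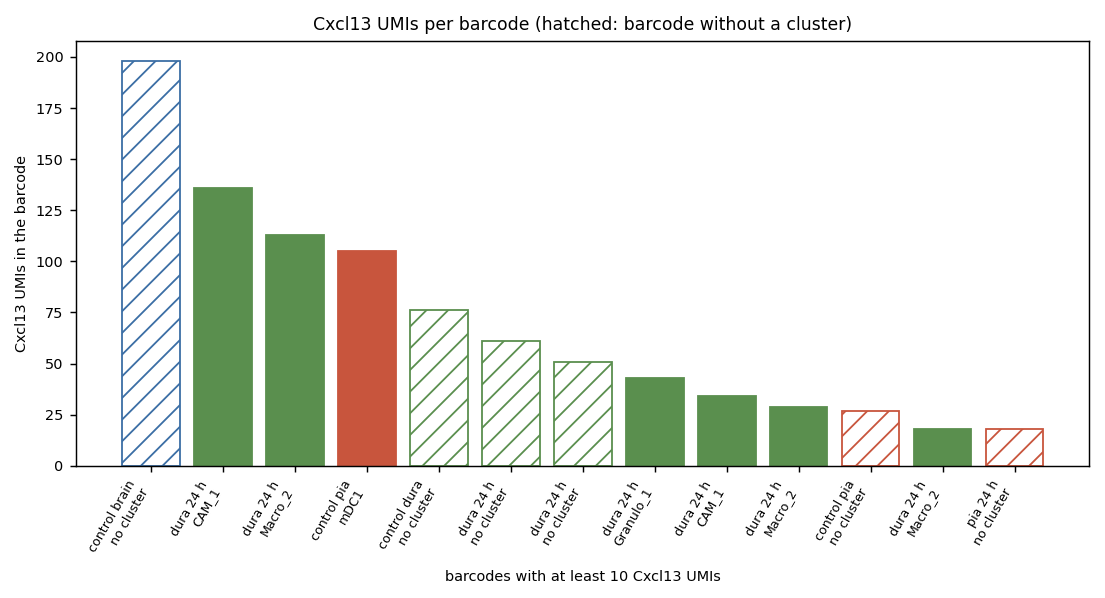
Cxcl13 UMIs in each of the 13 barcodes with at least 10, by library, hatched for barcodes without a cluster name. Counts run from 18 to 198 and 6 of the 13 bars are hatched.

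Cxcl14 had 878 UMIs in 551 cells (1.70%) and was higher after MCAO in every tissue. It was 0.86 CPM in control brain (6 UMIs), 9.97 and 11.3 CPM in the 24 h replicates and 11.5 CPM at 72 h, 15.8 CPM in control pia and 41.7 CPM in pia 24 h, and 2.10 CPM in control dura (12 UMIs) and 12.2 CPM in dura 24 h. Each of the 5 MCAO libraries lay above the control of its tissue, although control pia lay above brain and dura after MCAO. The brain ratios were 11.6 (5.11 to 32.4), 13.1 (5.75 to 36.8) and 13.4 (6.02 to 36.9), with replicates close to each other, the pia ratio was 2.63 (2.08 to 3.36) and the dura ratio 5.84 (3.20 to 11.7). B and T cells held Cxcl14 in at most 0.34% of cells.

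Of the clusters with at least 30 cells, SAMC had the highest Cxcl14 level in both brain replicates at 24 h and in pia 24 h, but each time its interval overlapped that of the next cluster. That was Macro_2 in both replicates (18.9 and 50.7 CPM) and a stressed myeloid cluster in the pia (154 CPM). Macro_2 held more of the UMIs than SAMC in replicate 2 and in the pia, and in replicate 2 the stressed myeloid cluster led with only cells of at least 1000 UMIs. SAMC held 54.1 CPM in brain 24 h replicate 1 (57.5% of the library's UMIs), 73.9 CPM in replicate 2 and 21.3 CPM at 72 h. In pia 24 h it held 164 CPM, and 17.9% (10.8 to 27.1) of its 95 cells carried a UMI. Those pia cells carried mainly border macrophage markers, unlike SAMC of brain 24 h, and are called SAMC only by the authors' label. The 72 h level was 0.393 (0.260 to 0.595) and 0.288 (0.165 to 0.525) of the 24 h replicates. Macro_2 went from 29.5 to 86.2 CPM in the pia (2.92, 2.18 to 3.93) and from 6.6 to 33.5 CPM in the dura (5.10, 2.57 to 11.2). CAM_1 of the pia went from 7.3 to 28.9 CPM (3.96, 1.99 to 8.73). The higher level in the coverings was thus present within clusters that both libraries held. Control brain held 1 SAMC cell, with 3 of its 6 Cxcl14 UMIs.

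Cxcl16, the membrane-bound ligand, was counted in 8596 cells (26.5%) with 18164 UMIs with a range of 81.3 to 505 CPM over the libraries. It was 81.3 CPM in control brain, 188 and 89.6 CPM in the 24 h replicates, 241 CPM at 72 h, 505 CPM in control pia, 402 CPM in pia 24 h, 374 CPM in control dura and 407 CPM in dura 24 h. All brain libraries lay below all libraries of the coverings. The brain ratios were 2.31 (2.10 to 2.55) and 1.10 (0.981 to 1.24) at 24 h and 2.97 (2.72 to 3.25) at 72 h, so the replicates at 24 h did not share a clear difference from control. The pia ratio was 0.797 (0.757 to 0.838) and the dura ratio 1.09 (1.03 to 1.15).

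Macro_2 and mDC2 were among the clusters with the highest Cxcl16 level. Macro_2 held 388 CPM in control brain, 461, 247 and 404 CPM in brain after MCAO, 771.5 and 840 CPM in control and 24 h pia, and 734.5 and 948 CPM in control and 24 h dura, with a UMI in 48.6 to 80.5% of its cells. In the pia its ratio was 1.09 (1.01 to 1.17) and in the dura 1.29 (1.19 to 1.40), so over Macro_2 the pia did not share the lower value of its library. The dendritic cells of mDC2 were 699 and 762 CPM in the pia and 683.5 and 1015 CPM in the dura (1.49, 1.31 to 1.68). SAMC held 301, 218 and 290 CPM in the brain and 356 CPM in pia 24 h. Micro_3 held 96.2 CPM in control brain and 199, 138 and 211 CPM after MCAO. Tc, Bc and NK cells held at most 44.7 CPM and Granulo_2 1.6 to 30.6 CPM. The receptor Cxcr6 was highest in gdTc of the dura, at 2754 CPM in control and 2631 CPM at 24 h. It was 1632 CPM in gdTc of pia 24 h, 1521 and 1007 CPM in ILC2 of control and 24 h dura and 1042 CPM in Tc of control brain. Library sums of Adam10 and Adam17 were 88.5 to 132 and 63.0 to 107 CPM in the brain, and 23.6 to 43.0 and 22.5 to 38.6 CPM in the coverings.

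**Figure D5:**
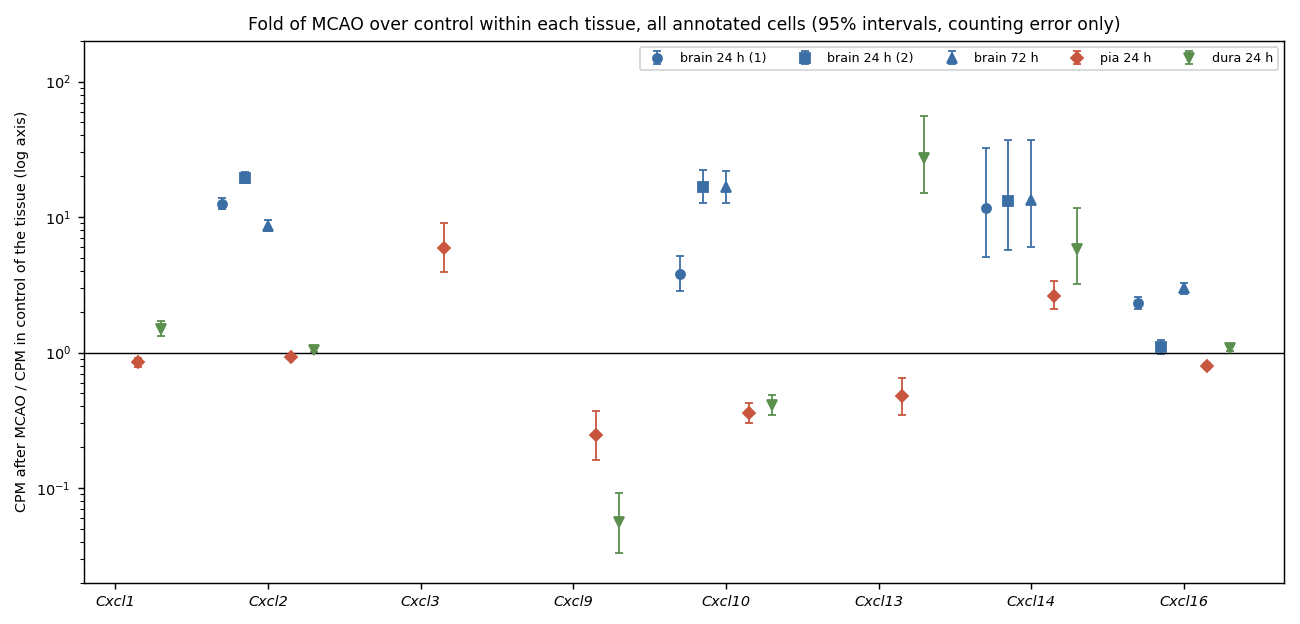
Ratio of CPM after MCAO to the control library of the same tissue for each gene (logarithmic axis), with 95% intervals that cover counting error only; pairs with under 4 UMIs in either library are not drawn. The 3 brain ratios of Cxcl14 lie between 11.6 and 13.4, and Cxcl10 lies above 1 in the brain and below 1 in pia (0.359) and dura (0.410). The dura 24 h and brain 72 h libraries also differ from their controls in stated kit version.

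The summed counts of all annotated cells, 8 libraries in all, were also tested with edgeR over every gene, with tissue and MCAO as terms. For MCAO against control, 0 of the 8 CXC genes passed an adjusted p of 0.05, as did 0.0% of all 12380 genes tested. At an unadjusted p under 0.05 there were 2 of 8, against 4.15% of all genes. Cxcl3 was higher by 4.10 on the log2 scale (SE 1.27, unadjusted p = 0.0142, edgeR adjusted p = 0.888). Cxcl14 was higher by 2.42 (SE 0.48, unadjusted p = 0.00148, edgeR adjusted p = 0.888), and it was higher in 5 of 5 MCAO libraries. The log2 differences of Cxcl1, Cxcl2, Cxcl9, Cxcl10, Cxcl13 and Cxcl16 were 1.23, 1.09, -1.53, -0.06, -0.27 and 0.28. The median of the 8 was 0.69 and that of all genes 0.06. DESeq2 called 0.549% of the genes, 2 CXC genes among them, with adjusted p of 0.00712 for Cxcl3 and 0.00158 for Cxcl14. Over all alternatives the adjusted p of both ran up to 1.

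The macrophage clusters (CAM_1, CAM_2, Macro_1 and Macro_2) were tested on their own, with the limit that CAM_1 and CAM_2 of control brain and replicate 1 carried mainly microglia markers. There 0 of the 8 passed, as did 0.0% of 10122 genes, and 2 of 8 against 4.66% of all genes had an unadjusted p under 0.05. These were Cxcl14 at 2.13 (SE 0.50, unadjusted p = 0.00275) and Cxcl13 at 4.62 (SE 1.43, unadjusted p = 0.0121), the latter from the few cells described above, each with an edgeR adjusted p of 0.923. For pia against dura, 0 of 8 and 0.0% of all genes passed. At an unadjusted p under 0.05 there were 2 of 8 against 4.34% of all genes, Cxcl3 at 4.28 (SE 1.56, edgeR adjusted p = 1) and Cxcl14 at 2.52 (SE 0.59, edgeR adjusted p = 1). In the macrophage clusters of pia against dura, 0 of 8 and 0.0% of all genes passed, and 1 of 8, Cxcl14 at 1.52 (SE 0.57), against 1.49% of all genes had an unadjusted p under 0.05. DESeq2 called 0.436% of genes for pia against dura and edgeR with the gene list as a covariate 2.1%, in both cases with Cxcl14 as the CXC gene called (adjusted p of 0.0346 and 0.0423).

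The difference of the MCAO effects between the brain and the coverings was tested, a comparison chosen after seeing the data. Of the 8 genes only Cxcl9 and Cxcl10 had opposite directions in the brain and both coverings. The values of Cxcl1 and Cxcl9 rest on 1 UMI each in control brain. Control brain and each group of pia and dura had 1 library, so the residual spread came only from the brain libraries after MCAO, which mix times. The SEs and p-values of this comparison therefore hold no spread of the coverings or of control brain. With all libraries 0 of the 8 passed, as did 0.0% of 13437 genes, and 5 of 8 against 2.43% of all genes had an unadjusted p under 0.05. On the log2 scale the effect in brain exceeded that in the coverings by 5.26 for Cxcl1 (SE 1.62, unadjusted p = 0.00904), by 3.58 for Cxcl2 (SE 1.55, 0.0448), by 6.92 for Cxcl9 (SE 2.11, 0.00884) and by 4.78 for Cxcl10 (SE 1.35, 0.00557). For Cxcl13 it was -4.54 (SE 1.53, 0.0146). All 5 had an edgeR adjusted p of 1. Without brain 24 h replicate 1, which leaves 1 residual degree of freedom, 18.0% of all genes were called and the same 5 CXC genes among them, with adjusted p of 0.00465 for Cxcl1, 0.0274 for Cxcl2, 9.2e-10 for Cxcl9, 9.98e-09 for Cxcl10 and 0.00147 for Cxcl13. The calls therefore rest on which brain libraries enter. Replicate 2 and brain 72 h, the brain libraries after MCAO that remained, were those with the shorter gene list. Stroke and that grouping cannot be told apart there, and the residual spread came only from between these libraries. In the macrophage clusters 0 of 8 and 0.0% of all genes passed, and 2 of 8, Cxcl10 and Cxcl13, against 1.29% had an unadjusted p under 0.05.

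Of 23 other genes of the pathway (receptors, other CXC ligands, proteases and interferon signalling), 22 were found and 16 entered the test over all cells. Of these, 0 passed in edgeR with all libraries in any comparison over all cells in either direction. At an unadjusted p under 0.05 there were 0 for MCAO against control, 1 lower for pia against dura (Cxcr6) and 1 higher for brain against the coverings (Cxcr4). The shares of all genes in these comparisons were 4.15%, 4.34% and 2.43%. Under alternatives Cxcr2 was called for MCAO against control with DESeq2 (adjusted p = 0.0403), and Cxcr6 for pia against dura with DESeq2 (0.00688) and with the gene list covariate in edgeR (0.0229). Without brain 24 h replicate 1 the log2 differences for brain against the coverings were 5.92 for Cxcr4, 6.96 for Cxcr5, 3.71 for Ifng and 4.33 for Pf4. These genes were among the 18.0% of all genes called there and are not read as a result about the pathway. The neutrophil attractant Cxcl5 had 0 to 2 UMIs and Cxcl12 0 to 34 UMIs per library, and Pf4, itself a CXC ligand, was 3.8 to 129 CPM in the brain and 535 to 1321 CPM in the coverings.

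Across 112 units of library and cluster with at least 30 cells, genes whose pattern was most like each member were ranked by the correlation of log2 CPM. This is a description across units that share libraries and depth. Cxcl1 was nearest to Pf4 (0.71), Cd163 (0.71) and Cd209f (0.69), Cxcl2 to Rab20 (0.76), Fth1 and Ccr1 (both 0.71), and Cxcl3 to Lrg1 (0.71), Fpr1 and Il1rap (both 0.70). Cxcl9 was nearest to Phf11a (0.62) and Cd40 (0.54), Cxcl10 to Hist1h3d (0.61) and Mgat4a (0.60), and Cxcl13 to Spic (0.53) and Cd36 (0.46). Cxcl14 was nearest to Mmp14 (0.68), Dpep2 (0.665) and Tgfbi (0.65), and Cxcl16 to Mt1 (0.83), Axl and Pid1 (both 0.81). Among the ELR genes the values were 0.65 for Cxcl1 and Cxcl2, 0.48 for Cxcl2 and Cxcl3 and 0.17 for Cxcl1 and Cxcl3. The Cxcr3 ligands Cxcl9 and Cxcl10 had 0.25. The highest of the other member pairs were Cxcl14 and Cxcl16 (0.52), Cxcl2 and Cxcl14 (0.47) and Cxcl1 and Cxcl16 (0.42). The lowest was Cxcl10 and Cxcl13 (-0.21).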

How the data were processed

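Deposited UMI counts per gene and cell barcode, made by the authors with Cell Ranger 6.0 on mm10 per the labels, were analysed for 8 libraries of CD45iv-CD45+ leukocytes. Cells were grouped by the authors' annotation table, made after they had removed doublets with scDblFinder and filtered cells by gene number and mitochondrial share; no doublet caller was run again. The 8 genes and all lists were chosen with earlier results of these data known. UMIs were summed per library and cluster, and clusters with at least 30 cells were described. For shares, cells were thinned to 1000 UMIs, leaving out shallower cells. No column of other samples was present (0 unmapped).

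Library sums were tested in R 4.3.3 with edgeR 4.0.16 (quasi-likelihood, TMM, tissue and MCAO as terms, Benjamini-Hochberg adjustment) over all genes past filterByExpr, over all annotated cells and over macrophage clusters (CAM_1, CAM_2, Macro_1 and Macro_2). DESeq2 1.42.0 was an alternative. Nothing states that the 2 brain libraries at 24 h came from separate mice, so p-values measure the spread between libraries, which may be technical. The code was tested on simulated counts. Genes named were the 8 members, the pathway list and, per member, the 3 genes of the most similar pattern (at least 200 UMIs for a member and 500 for another gene, log2 of CPM plus 10). A result on another pathway gene is not reported here.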

Additional observations from a re-analysis of the deposited data

Results flagged for a closer look

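The MCAO effect of Cxcl9 and Cxcl10 differed between tissues in direction. Both genes were higher than control in 3 of 3 brain libraries after MCAO and lower in pia and dura. The brain libraries with the larger differences, replicate 2 and brain 72 h, were those with the shorter gene list, so stroke and that grouping cannot be told apart there. For Cxcl9 the brain side rests on few cells, since control brain held 1 UMI, replicate 1 held 3 UMIs in 1 cell, and 1 cell of replicate 2 held 23 of its 42 UMIs. The pia side rests in part on 1 control pia cell that held 27 of that library's 98 Cxcl9 UMIs. The difference of the effects, brain minus the mean of pia and dura, was 6.92 for Cxcl9 and 4.78 for Cxcl10 on the log2 scale, with an adjusted p of 1 for each in edgeR over all genes.

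Barcodes without a cluster name, which entered a comparison only in the alternative with all deposited barcodes, held signal of the same genes. Cxcl2 was 4804.7 CPM in those of pia 24 h. Cxcl13 was 214.4 CPM in those of control brain, from the single barcode of 198 UMIs described above, 36.7 CPM in those of control pia and 69.6 CPM in those of control dura. In control brain 0 Cxcl13 UMIs remained among barcodes without a cluster name once that barcode was left out.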

How the results depend on the processing

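No paired analysis was possible because only the brain 24 h group had 2 replicates, so the groups share fewer than 2 numbers. Over all annotated cells the count of genes called for MCAO against control, 0 in edgeR, was 68 with DESeq2, 3 with the gene list as a covariate (chosen after seeing the data) and 9 without the filter on low counts. In the macrophage clusters it was 13, 8 and 7, and 0 to 1 with each library left out, the 1 without brain 24 h replicate 1. For pia against dura the same alternatives gave 54, 260 and 5 genes over all cells and 8, 25 and 18 in the macrophage clusters, where leaving out a library gave 0 to 1. For brain against the coverings, leaving out a library gave 0 to 2405 genes over all cells and 0 to 636 in the macrophage clusters, in both cases the most without brain 24 h replicate 1. For the 14 member comparisons with an unadjusted p under 0.05, 113 of 122 alternatives kept direction and side of the threshold and 9 passed it. For the other 34, 45 of 389 alternatives reversed direction and 0 passed, and Cxcl1 and Cxcl2 for MCAO against control ranged from -0.75 to 2.40 and from -0.43 to 1.99 (log2). Scaling by library size alone moved the median of all genes for MCAO against control from 0.06 to 0.18 (log2). For the 51 pairs of gene and library with at least 20 UMIs, the leading cluster stayed the same in 45 with only cells of at least 1000 UMIs, 36 by share after thinning to 500 UMIs, 33 without the 5 top cells, 29 with at least 100 cells per cluster and 29 by share after thinning to 1000 UMIs. Without the 5 top cells, a step that favours lower values, the level of the leading cluster left its interval in 48 of the 51 pairs. Because that step lowers the level of any gene, it cannot show how much single cells weigh. Over all annotated cells the top 10 cells held 79.9% of the Cxcl13 UMIs, 35.6% for Cxcl9 and 21.6% for Cxcl3. The shares were 9.80% for Cxcl10, 8.09% for Cxcl14, 6.60% for Cxcl1, 1.85% for Cxcl2 and 0.859% for Cxcl16. Levels of small clusters can still rest on single cells for any gene. Genes of few UMIs (Cxcl3, Cxcl9, Cxcl13) are limited the most, by depth and by single cells.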
